A study of Mus musculus with 4 samples.

Results

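In all, 10 genes of fatty acid handling were followed in endothelial cells (EC) of the mouse aorta: *Cd36*, *Fabp4*, *Fabp5*, *Gpihbp1*, *Lpl*, *Rbp7*, *Car4*, *Timp4*, *Pparg* and *Meox2*. They are 10 of the 18767 genes in the deposited table, were picked by name, and were read in the 824 of 991 deposited cells that had more than 1200 genes. Jag1 ECKO mice were Jag1 fl/fl and carried a Cre recombinase that tamoxifen activates under the promoter of *Cdh5*, an endothelial adhesion gene, whereas control Jag1 ECWT mice were Jag1 fl/fl without Cre. Male C57BL/6J mice of both genotypes received 2 mg of tamoxifen per day for 5 days. Aortas were digested after the adventitia had been taken off, and single CD31+ CD45- cells that excluded the dye TO-PRO-3 were sorted into plates and read by SORT-seq, which counts the 3′ ends of transcripts by molecular identifiers. The 4 libraries, 2 per label, are called ECKO 1, ECKO 2, ECWT 1 and ECWT 2 here, and the number of animals behind each is not given in the sources used here.

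Endothelium that feeds muscle, heart and fat takes fatty acids from the blood and passes them to the tissue behind it. Lipoprotein lipase frees fatty acids from triglyceride-rich particles while it is held on the capillary wall by GPIHBP1, CD36 takes the fatty acids up, and small binding proteins of the FABP family carry them inside the cell. PPARγ and the homeobox protein MEOX2, which pairs with TCF15, are transcription factors known to drive such genes in capillaries. Large arteries are lined by arterial endothelium, in which this programme is not the defining one.

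The kept cells numbered 202 in ECKO 1, 236 in ECKO 2, 140 in ECWT 1 and 246 in ECWT 2, with 859280 to 1779042 counts per library and a median of 4212 to 6517.5 counts per cell. All of them had *Pecam1* or *Cdh5*, and 98.6% to 100% of cells per library had 3 or more of 10 endothelial markers. In 46 cells the summed markers of fibroblasts and of vascular smooth muscle (VSMC) exceeded the endothelial markers; 58 cells lay within 2-fold of that limit, so these cells are a range and not a type. Summed adipocyte markers reached at most 4.69 counts per 1000000 counts (CPM) and macrophage markers at most 6.70 CPM. ECKO 1 stood apart, with the highest VSMC markers (3681 CPM against 439 to 1667) and the highest dissociation genes (3731 CPM against 1801 to 2120). *Jag1* itself went against the labels: it stood at 158 CPM in ECKO 1, 70.8 in ECKO 2, 32.6 in ECWT 1 and 26.1 in ECWT 2. The exons removed by Cre are not given in the sources used here, so it is not known whether the 3′ tag of *Jag1* lies outside them. The cause of the higher level in ECKO was not tested. The study reports the deletion in such mice by qRT-PCR and en face staining, but the genotype of these libraries could not be checked here. The libraries are therefore called by their labels.

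*Fabp4*, which encodes a cytosolic fatty acid binding protein, was the most abundant of the 10 genes in every library. It reached 631 CPM in ECKO 1 (641 counts), 168 in ECKO 2 (299 counts), 119 in ECWT 1 (102 counts) and 151 in ECWT 2 (226 counts). ECKO 1 stood far above the other 3 libraries, which lay between 119 and 168 CPM. *Cd36*, the fatty acid receptor of the cell surface, followed with 190 CPM in ECKO 1, 46.1 in ECKO 2, 60.5 in ECWT 1 and 24.1 in ECWT 2. Its labels overlapped, since ECKO 2 lay between the ECWT libraries. *Fabp4* and *Cd36* together gave 65.5% to 87.5% of all counts of the 10 genes in a library.

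Both genes were concentrated in few cells. *Fabp4* was counted in 136 of 824 cells (16.5%), and 35 cells with 10 or more counts included 20 of ECKO 1, 7 of ECKO 2, 4 of ECWT 1 and 4 of ECWT 2. In ECKO 1, 24.8% of cells had *Fabp4* (95% exact binomial interval 19.0 to 31.3), whereas 91.4% would have had it if its counts had been spread over cells in proportion to their depth. The corresponding shares were 16.1% in ECKO 2, 10.7% in ECWT 1 and 13.4% in ECWT 2, where even spreading would have given 48.9% to 65.6%. *Cd36* was counted in 14.9% of cells in ECKO 1 (10.3 to 20.5), 4.66% in ECKO 2, 5.71% in ECWT 1 and 2.44% in ECWT 2. A single cell held 61.5% of all *Cd36* counts of ECWT 1, and 2 cells held more than 50% of them in ECKO 2 and in ECWT 2. In total 10 cells gave 59.0% of the *Cd36* counts and 40.6% of the *Fabp4* counts.

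**Figure D1:**
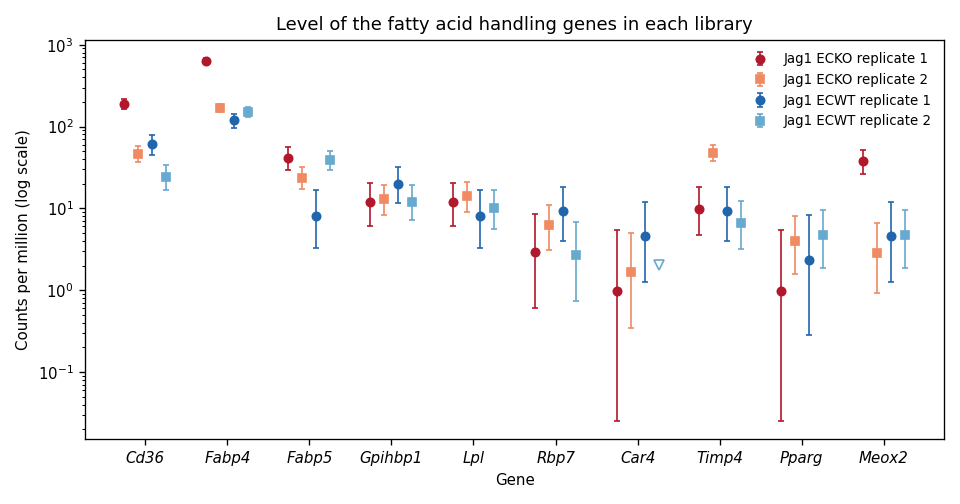
Level of each gene in each library as CPM of the summed kept cells, on a log axis. Points are libraries, bars are 95% exact Poisson intervals that cover counting error only, and the open triangle is the limit of 3 counts (2.01 CPM) for *Car4* in ECWT 2, which had 0 counts. *Fabp4* (631 CPM), *Cd36* (190 CPM) and *Meox2* (37.4 CPM) stood highest in ECKO 1, and *Timp4* (47.8 CPM) in ECKO 2.

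*Fabp5*, a binding protein close to *Fabp4* in sequence family and 187 kb away on chromosome 3 (*Fabp5* at chr3:10012548-10016607, *Fabp4* at chr3:10204088-10208576, GENCODE M21 on GRCm38), behaved otherwise. It stood at 41.3 CPM in ECKO 1, 23.6 in ECKO 2, 8.15 in ECWT 1 and 38.9 in ECWT 2, so the labels overlapped. It was found in 102 cells, 77 of which had a single count, and only 1 cell had 10 or more. Its share of cells was 13.4%, 13.98%, 3.57% and 15.0% in the same order. *Fabp5* was thus thinly spread where *Fabp4* was heaped in a minority. GENCODE M21 also lists *Fabp5l2*, a processed pseudogene of *Fabp5*, and how reads shared by such copies were counted is not given in the sources used here. *Rbp7*, a retinol binding protein of the same family that PPARγ is known to induce in endothelium, was sparse, with 3, 11, 8 and 4 counts in the 4 libraries, or 2.68 to 9.31 CPM. All 4 counts of ECWT 2 came from a single cell.

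The lipase and its anchor were low in every library. *Gpihbp1*, the capillary anchor of lipoprotein lipase, stood at 11.8, 12.9, 19.8 and 12.1 CPM in ECKO 1, ECKO 2, ECWT 1 and ECWT 2. Between 2.48% and 4.29% of cells carried it, and 10 cells held 77.1% of its counts. *Lpl*, lipoprotein lipase, stood at 11.8, 14.1, 8.15 and 10.1 CPM, in 2.97% to 5.93% of cells. *Lpl* differed from its anchor in where it was found, since 28.8% of its counts lay in cells with more fibroblast and VSMC than endothelial markers, against 1.43% for *Gpihbp1*.

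Of the genes known from capillary endothelium of heart and muscle, *Car4*, a carbonic anhydrase of the capillary surface, was nearly absent, with 1, 3, 4 and 0 counts. The 0 of 246 cells in ECWT 2 allows a level of up to 2.01 CPM (3 counts). *Timp4*, a secreted inhibitor of metalloproteinases, stood at 9.84 CPM in ECKO 1, 47.8 in ECKO 2, 9.31 in ECWT 1 and 6.70 in ECWT 2. The high value of ECKO 2 came from few cells: 1 cell held 34 of its 85 counts and had 184 counts of fibroblast markers. Without the 46 cells of high fibroblast and VSMC markers, 23 of the 85 counts remained, and such cells held 59.3% of the *Timp4* counts over all libraries but 17.9% (5 of 28) without ECKO 2.

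Among the transcription factors, *Meox2* had 38 counts in ECKO 1 (37.4 CPM), 5 in ECKO 2 (2.81), 4 in ECWT 1 (4.66) and 7 in ECWT 2 (4.69). ECKO 1 stood alone, with *Meox2* in 6.93% of cells (3.84 to 11.4) against 1.43% to 2.03% elsewhere, and 1 cell held 13 of its 38 counts. *Pparg* was at the limit of detection, with 1, 7, 2 and 7 counts and at most 4.69 CPM. Because each count is 1 tag at a transcript's 3′ end, levels were not divided by gene length. By mean CPM (± SD, n = 4 libraries) the order was *Fabp4* (267 ± 243), *Cd36* (80.2 ± 74.7), *Fabp5* (27.99 ± 15.4), *Timp4* (18.4 ± 19.6), *Gpihbp1* (14.1 ± 3.79), *Meox2* (12.4 ± 16.7), *Lpl* (11.02 ± 2.52), *Rbp7* (5.28 ± 3.12), *Pparg* (2.98 ± 1.66) and *Car4* (1.83 ± 2.005). Each neighbouring pair in this order differed by less than the larger SD of the pair, except *Lpl* and *Rbp7*, whose libraries still overlapped. Within each of the 4 libraries *Fabp4* exceeded *Cd36*.

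The share of cells with a gene depends on depth, so every cell was also thinned to 2837 counts, which left 742 cells and set aside 82 shallower ones (36, 13, 13 and 20 in ECKO 1, ECKO 2, ECWT 1 and ECWT 2). *Fabp4* was then found in 16.9% of cells in ECKO 1, 9.87% in ECKO 2, 7.87% in ECWT 1 and 7.96% in ECWT 2. *Cd36* was found in 11.4%, 3.59%, 3.94% and 1.77% of cells. ECKO 1 thus stayed highest for both genes at equal depth. For *Fabp5* ECWT 1 stayed lowest, at 2.36% against 5.38% to 9.04%. At equal depth *Fabp4* was in 10 of 44 cells of high fibroblast and VSMC markers (22.7%) and in 68 of 698 other cells (9.74%), so *Fabp4* was not limited to cells led by endothelial markers. For *Cd36* these numbers were 1 of 44 and 35 of 698, and for *Lpl* 6 of 44 and 13 of 698.

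*Cd36* and *Fabp4* went together. Among the thinned cells 28 had both, against 4.71 expected if each gene fell into the cells of its library independently of the other. The number exceeded expectation in every library, with 15 against 3.20 in ECKO 1, 7 against 0.79 in ECKO 2, 3 against 0.39 in ECWT 1 and 3 against 0.32 in ECWT 2. Pearson's r of log2(count + 1) was 0.80 over the 166 cells of ECKO 1, 0.77 over 223 cells of ECKO 2, 0.81 over 127 cells of ECWT 1 and 0.75 over 226 cells of ECWT 2. These correlations are across cells of 1 library, which share its preparation and are not replicates, and are given with no test. At full depth 65.5% of *Cd36* cells had *Fabp4*, whereas 26.5% of *Fabp4* cells had *Cd36*. The latter share was 42% in ECKO 1, 21.1% in ECKO 2, 20% in ECWT 1 and 12.1% in ECWT 2. *Fabp4* thus also occurred without *Cd36*, at up to 18 counts in a cell of ECKO 1.

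**Figure D2:**
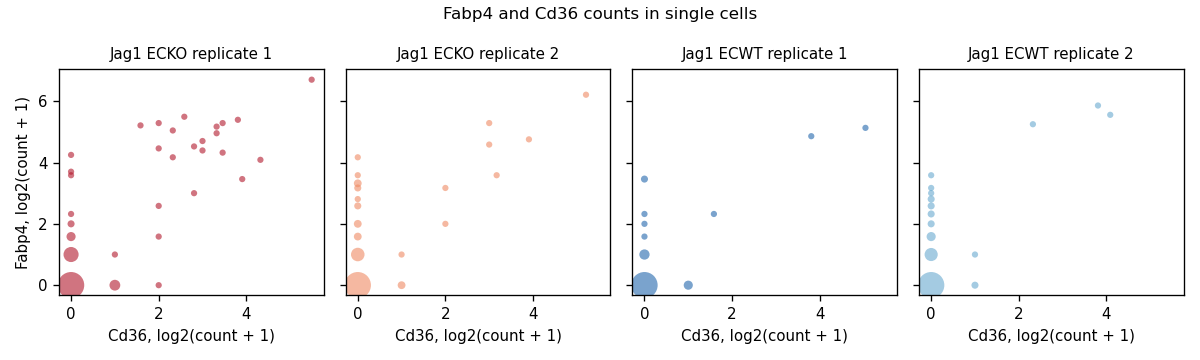
Counts of *Fabp4* (vertical axis) against *Cd36* (horizontal axis) at full depth, both as log2(count + 1), in the cells of each library. A point is a pair of counts and its area grows with the number of cells up to 60. In each library the cells with the most *Cd36* also had many *Fabp4* counts, and ECKO 1 held 21 cells with both genes against 8, 3 and 4 in ECKO 2, ECWT 1 and ECWT 2.

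A further 3 genes joined this pair. *Gpihbp1* shared 9 thinned cells with *Cd36* against 0.62 expected and 9 with *Fabp4* against 1.36, both above expectation in each of the 4 libraries. *Meox2* shared 9 of its 10 thinned cells with *Cd36*, against 0.74 expected, and 9 with *Fabp4*, against 1.28. For both pairs these were 5 cells of ECKO 1, 2 of ECKO 2 and 1 of each ECWT library. At full depth 16 of the 25 cells with *Meox2* had *Cd36*, and 20 had *Fabp4*. *Rbp7* shared 6 of its 8 thinned cells with *Cd36* (0.28 expected) and 6 with *Gpihbp1* (0.20 expected), in the 3 libraries that held any after thinning. The mean r over the 4 libraries was 0.58 for *Cd36* with *Gpihbp1* and 0.47 for *Cd36* with *Meox2*. *Meox2* and *Gpihbp1* were found together in 3 cells against 0.19 expected, with a mean r of 0.21.

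The other members were placed less clearly. *Fabp5* was found with *Fabp4* in 13 cells against 5.14 expected, but its mean r was 0.25 with *Fabp4*, 0.23 with *Cd36* and 0.02 with *Gpihbp1*. *Lpl* had a mean r of at most 0.08 with any of *Cd36*, *Fabp4*, *Fabp5*, *Gpihbp1* and *Meox2*, and shared 1 cell with *Gpihbp1*, its anchor. *Pparg*, found in 7 thinned cells, shared none with *Cd36* and none with *Fabp4*, where 0.20 and 0.59 were expected, so its counts are too few to place it. *Car4*, in 3 thinned cells, cannot be placed either. *Timp4* shared 6 cells with *Fabp4* against 2.36 expected, 5 of them in ECKO 2. It shared 3 cells with *Rbp7* against 0.26 expected and 3 with *Gpihbp1* against 0.35, each pair above expectation in ECKO 2 and ECWT 2.

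**Figure D3:**
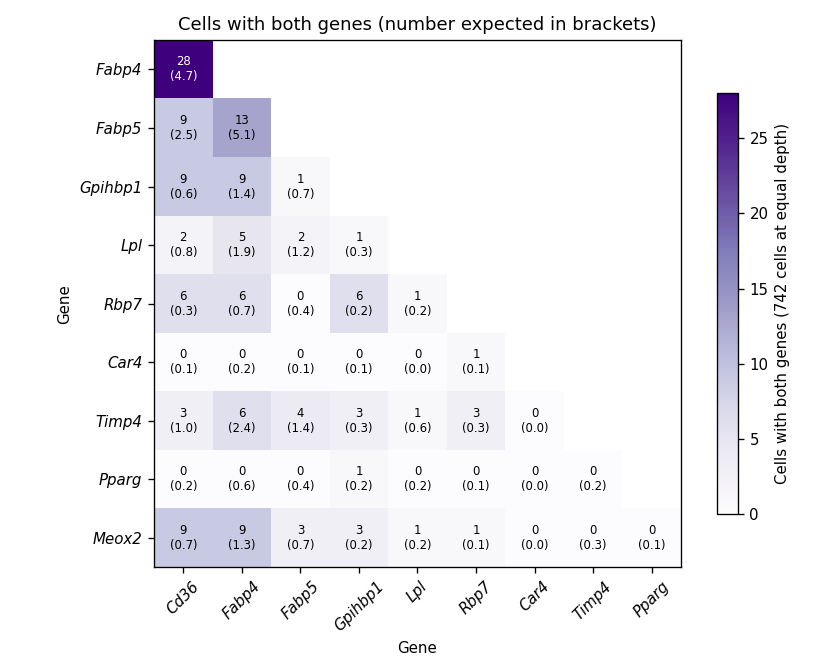
Number of cells with both genes of a pair among 742 cells thinned to equal depth, with the number expected under independence within each library in brackets. Darker squares hold more cells. *Cd36* and *Fabp4* shared the most cells (28 against 4.71), while *Pparg* and *Car4* shared at most 1 cell with any other gene.

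The upstream sequences of *Cd36* and *Meox2* are shown because these genes shared cells, and *Cd36* is a known target of PPARγ. The thinned cells with both were 5, 2, 1 and 1 in ECKO 1, ECKO 2, ECWT 1 and ECWT 2. RefSeq promoter entries on GRCm38.p6 were matched for 6 of the 10 genes (*Cd36*, *Rbp7*, *Car4*, *Timp4*, *Pparg* and *Meox2*). Each sequence below is the 250 bases before the annotated start, 5′ to 3′ on the gene's strand, and neither overlaps an exon of GENCODE M21. Capitals mark AGGTCA on either strand, the core letters of nuclear receptor binding sites such as that of PPARγ. The *Cd36* window is chr5:17835897-17836146 on the minus strand, inside the span of the gene (chr5:17781690-17888801) because GENCODE lists starts farther upstream. The *Meox2* window is chr12:37108290-37108539 on the plus strand, just before the gene (chr12:37108540-37179534).
Cd36: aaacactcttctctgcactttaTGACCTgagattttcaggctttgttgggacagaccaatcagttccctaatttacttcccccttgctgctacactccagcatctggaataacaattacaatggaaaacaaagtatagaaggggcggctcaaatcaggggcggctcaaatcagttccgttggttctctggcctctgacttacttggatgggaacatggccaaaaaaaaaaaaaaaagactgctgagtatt
Meox2: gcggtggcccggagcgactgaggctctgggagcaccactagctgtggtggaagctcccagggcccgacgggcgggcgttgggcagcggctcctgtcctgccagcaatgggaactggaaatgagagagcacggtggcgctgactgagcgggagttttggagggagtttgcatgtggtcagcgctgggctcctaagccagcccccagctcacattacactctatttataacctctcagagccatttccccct
The match in *Cd36* (printed as its reverse complement TGACCT) begins 228 bases before the start. In the whole 300-base entries AGGTCA was also found at 2 of the 3 starts of *Pparg*, and in 16.3% of all 32851 promoters. A direct repeat of AGGTCA with 1 base of any kind between the copies, searched on both strands and overlapping the single AGGTCA, occurred in 0.0396% of promoters and the homeobox letters TAATTA (both strands) in 5.29%, and neither was found in the member entries. A match is a description of letters and not of binding.

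At equal depth 584 of 742 cells had none of the 10 genes, 114 had 1, 21 had 2, 11 had 3, 7 had 4 and 5 had 5. The 12 cells with 4 or more came from every library: 4 of ECKO 1, 4 of ECKO 2, 2 of ECWT 1 and 2 of ECWT 2, or 2.41%, 1.79%, 1.57% and 0.885% of thinned cells. The exact binomial intervals of these shares overlapped (0.660% to 6.05% in ECKO 1 and 0.107% to 3.16% in ECWT 2). At full depth these 12 cells carried 48.5% of all *Cd36*, 34.4% of *Fabp4*, 54.3% of *Gpihbp1*, 69.2% of *Rbp7* and 35.2% of *Meox2* counts, but 9.40% of *Fabp5* and 11.9% of *Lpl*. The share of *Meox2* rested on ECKO 1, which gave 16 of the 19 counts, and was 18.8% without it, and that of *Lpl* was 6.38% without ECKO 1. The 34.5% of *Timp4* rested on ECKO 2 and was 3.57% without it. Their median total was 4568.5 counts. A cell of ECKO 1 had 21901 counts, 5.20 times the median of its library, with 103 of *Fabp4*, 44 of *Cd36* and 13 of *Meox2*. The richest cell of ECKO 2 had 73 counts of *Fabp4*, 36 of *Cd36*, 11 of *Gpihbp1* and 4 of *Rbp7*, and that of ECWT 2 had 57, 13, 9 and 4. One of the 12, in ECKO 2, was the cell with 34 counts of *Timp4*, 0 of *Cd36* and high fibroblast markers.

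Genes that the choice of these cells did not use were compared between the 12 cells and the 698 cells with 0 or 1 of the genes. Capillary markers summed to 5522 CPM in the 12 cells against 554 in the others, and were higher in 4 of 4 libraries (4670 against 558 in ECKO 1, 4142 against 530 in ECKO 2, 10046 against 602 in ECWT 1 and 5464 against 549 in ECWT 2). *Plvap*, a diaphragm protein of fenestrae and caveolae, stood at 2291 against 380 CPM and gave 78 of the 188 counts of the list in the 12 cells. *Cd300lg*, a glycoprotein of capillary endothelium, was found in 50% of the 12 cells against 2.58% of the others, *C1qtnf9*, a relative of adiponectin, in 75% against 1.29%, and *Kdr*, a receptor for VEGF, in 50% against 1.29%. *Tcf15*, the partner of MEOX2, was found in 4 of the 12 cells and in none of the 698, which allows a share of up to 0.430% of cells with a count at this depth (3 cells). At full depth *Tcf15* had 22 counts, in 1.70% of kept cells. The 12 cells are few, and these shares are a description with no test.

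Arterial markers summed to 1028 against 1659 CPM and were lower in 4 of 4 libraries. *Bmx*, a kinase of arterial endothelium, was found in none of the 12, which allows a share of up to 25% of cells with a count at this depth, and in 66.6% of the others, and *Gja4*, a connexin of arterial endothelium, stood at 117 against 361 CPM. Without *Bmx* the arterial list stood at 1028 against 1165 CPM and was higher in ECKO 2, and *Sox17* (294 against 186 CPM) and *Dll4*, a Notch ligand (235 against 27.3), each higher in 3 of 4 libraries, went the other way. The pan-endothelial list was lower as well (7990 against 10521 CPM), with *Pecam1* at 2232 against 4844 CPM, whereas *Cdh5* was higher (617 against 379 CPM), each in 4 of 4 libraries. Without *Pecam1* the list stood at 5757 against 5677 CPM and was higher in ECKO 1 alone. *Vwf* (999 against 1669 CPM) was also lower, in 3 of 4 libraries, and *Tek* (264 against 611 CPM) in 4 of 4. *Cldn5* (911 against 382 CPM) and *Egfl7* (1204 against 887 CPM) were higher, each in 3 of 4. Fibroblast markers were lower in 3 of 4 libraries, ECKO 2 with its *Timp4* cell being the exception, and VSMC markers in 4 of 4. Adipocyte and macrophage markers were at 0 in the 12 cells at equal depth, where the others stood at 3.03 and 4.04 CPM, and had 1 count each at full depth. Venous markers summed to 1028 against 589 CPM and were higher in 2 of 4 libraries: *Lrg1* stood at 176 against 27.8 CPM and *Nr2f2*, a transcription factor of venous endothelium, at 235 against 27.8, but *Selp*, the adhesion molecule P-selectin, at 147 against 434. Lymphatic markers summed to 117 against 49.0 CPM (4 counts in the 12 cells) and were higher in 3 of 4 libraries, with *Prox1*, a transcription factor of lymphatic endothelium, in 2 of the 12 cells and none of the 698, and *Lyve1* at 0 in the 12.

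Lipid genes outside the 10 differed in part. Genes of lipid storage and lipolysis stood at 1527 CPM in the 12 cells against 453 in the others and genes of fatty acid oxidation at 1616 against 819, both higher in 4 of 4 libraries. Single genes carried much of this: *Ucp2* gave 18 of the 55 oxidation counts and *Mgll* 31 of the 52 storage counts, and without them the lists were higher in 2 and in 3 of 4 libraries. *Mgll*, which cleaves monoacylglycerol, stood at 911 against 99.0 CPM, and *Ucp2*, a carrier of the inner mitochondrial membrane, at 529 against 9.59 CPM. Genes of fatty acid synthesis were at 617 against 762 CPM and higher in only 1 of 4 libraries. Lipoprotein genes summed to 4641 against 6049 CPM and were lower in 3 of 4 libraries, but *Apoe*, an apolipoprotein, carried this (940 against 3902 CPM), and without it the list stood at 3701 against 2148 CPM and was higher in 4 of 4. Within that list *Scarb1*, a lipoprotein receptor, was found in 41.7% against 5.16% of cells and *Flt1*, a receptor for VEGF-B, in 66.7% against 10.5%.

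**Figure D4:**
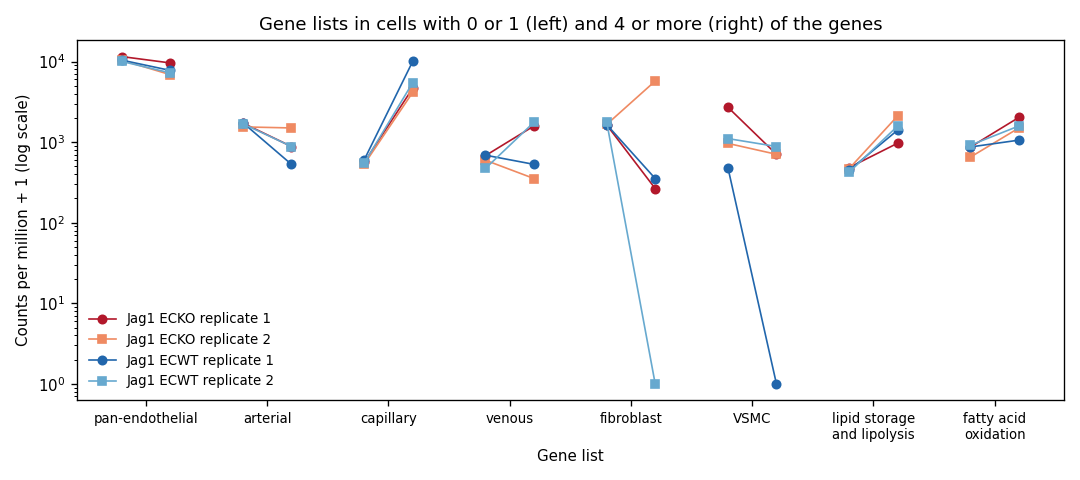
Summed level of gene lists in cells with 0 or 1 (left point) and with 4 or more (right point) of the 10 genes, in CPM plus 1 on a log axis, at equal depth; lines join the values of 1 library. The capillary list lay between 530 and 602 CPM on the left and between 4142 and 10046 CPM on the right, and the arterial list was lower on the right in every library.

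Across the 8881 genes compared, those whose counts most resembled the sum over the 10 genes were *Pde2a* (mean r over the 4 libraries 0.63), *C1qtnf9* (0.62), *Robo4* (0.51), *Ucp2* (0.50), *Flt1* (0.47), *Lrg1* (0.46), *Kdr* (0.44), *Cd300lg* (0.43), *Sparcl1* (0.42) and *Eltd1* (0.41). *Pde2a* ranged from 0.35 in ECKO 2 to 0.87 in ECWT 2. The genes most like *Gpihbp1* were *Cd300lg* (0.61), *C1qtnf9* (0.61) and *Cd36* (0.58). The genes most like *Lpl* included *Prg4* (0.35), which encodes lubricin, and 2410002F23Rik (0.25), neither of them a member.

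The comparison between labels asked whether these genes changed with endothelial *Jag1*. Counts were summed per library and tested with edgeR over 9730 genes, of which 6 members passed the filter on low counts; *Rbp7*, *Car4*, *Pparg* and *Meox2* did not. No gene passed an adjusted p of 0.05, so 0% of tested genes were called in either direction; 465 genes had an unadjusted p below 0.05, and DESeq2 also called 0, with 159 below 0.05. In edgeR *Fabp4* had a log2 fold change (ECKO over ECWT) of 1.53 (SE 0.49, adjusted p = 0.900), *Cd36* of 1.51 (SE 0.62, adjusted p = 0.900) and *Timp4* of 2.01 (SE 0.72, adjusted p = 0.900). These 3 were among the 2.57% of genes with an unadjusted p below 0.05 and a higher level in ECKO (2.21% had a lower one, with no member), at unadjusted edgeR p-values of 0.0143, 0.0398 and 0.0228. *Lpl* differed by 0.51 (SE 0.46), *Fabp5* by 0.31 (SE 0.57) and *Gpihbp1* by -0.28 (SE 0.43), with edgeR adjusted p-values of 0.919, 0.965 and 0.957. Both ECKO libraries lay above both ECWT libraries for *Fabp4*, *Lpl* and *Timp4*, as for 16.0% of all genes tested, and no member had both below, as 19.4% of genes did. *Jag1* differed by 1.96 (SE 0.37, edgeR adjusted p = 0.428). With 2 libraries per label an exact permutation test cannot give p below 0.333, and the p-values measure only the spread between these libraries.

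The larger differences each rested on 1 library. Without ECKO 1 the log2 fold change of *Cd36* was 0.30 and that of *Fabp4* 0.36 (edgeR adjusted p = 0.780 and 0.535), and without ECKO 2 they were 2.24 and 2.17 (edgeR adjusted p = 5e-19 and 1.49e-26). *Timp4* went the other way, at 2.68 without ECKO 1 (edgeR adjusted p = 3.94e-07) and 0.30 without ECKO 2 (0.931). In these fits the lone ECKO library is assumed to vary as the ECWT libraries do. Without the cells of high fibroblast and VSMC markers *Timp4* differed by 0.64, whereas *Cd36* and *Fabp4* differed by 1.54 and 1.71. Without the 10% of cells highest in dissociation genes, which included 25.2% of the cells of ECKO 1, *Cd36* differed by 1.39 and *Fabp4* by 1.51. ECKO 1 was also the highest library in VSMC markers, above, in capillary markers (1141 CPM against 579 to 737), in venous markers (863 against 503 to 683) and in pericyte markers (288 against 88.4 to 130). Its red blood cell and platelet markers stood at 87.6 CPM against 2.25 to 4.02, with *Beta-s*, a haemoglobin chain, at 83.7 CPM in ECKO 1 and 0 elsewhere. Between the labels the VSMC, capillary, venous and pericyte lists had median log2 fold changes of 1.68, 0.61, 1.00 and 1.97 over 10, 7, 6 and 3 tested genes, and the part of all these markers in the differences of *Cd36* and *Fabp4* was not tested.

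**Figure D5:**
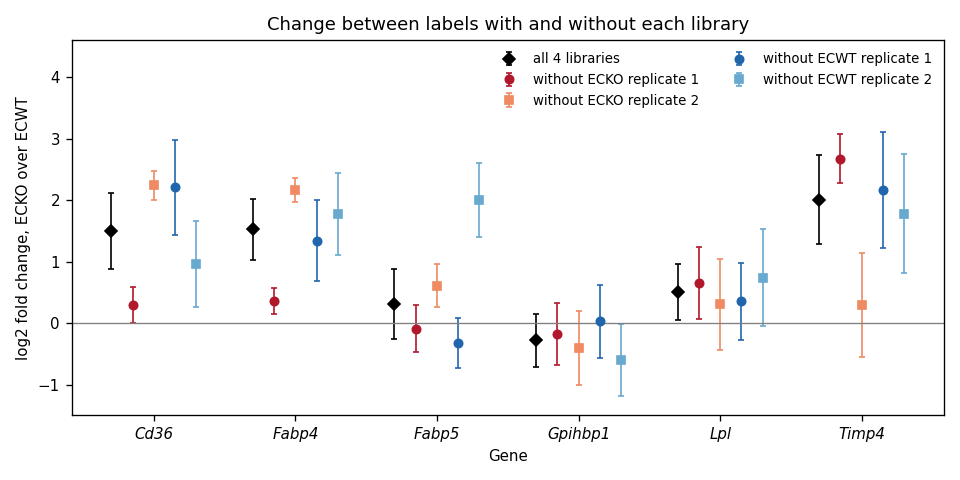
edgeR log2 fold change, ECKO over ECWT, of the 6 members that were tested, with all 4 libraries (black) and with each library left out; bars are 1 SE. *Cd36* and *Fabp4* stood at 0.30 and 0.36 without ECKO 1, and *Timp4* at 0.30 without ECKO 2.

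The differences in *Cd36* and *Fabp4* kept their direction when other cells were left out. Without the 12 cells rich in the members the log2 fold changes were 1.58 for *Cd36*, with the SE up from 0.62 to 1.005 and an unadjusted edgeR p of 0.152, and 1.75 for *Fabp4* (SE 0.54), and without the cell with the most counts of each gene in each library they were 2.22 and 1.72. In cells thinned to equal depth they were 1.61 and 1.31. For *Fabp4* ECKO 1 had both the largest share of cells at equal depth (16.9%) and 20 of the 35 cells with 10 or more counts. For *Fabp5* the direction turned without ECKO 1 (-0.09) and without ECWT 1 (-0.32), and for *Gpihbp1* without ECWT 1 (0.028). For the 4 genes below the filter DESeq2 gave 2.08 for *Meox2*, which was high in ECKO 1 alone. DESeq2 gave -0.26, -0.63 and -0.45 for *Rbp7*, *Car4* and *Pparg*. With all deposited cells the mean level turned direction for *Car4* (6.04 CPM in ECKO against 2.21 in ECWT) and *Rbp7* (6.02 against 5.71). *Pparg* stayed lower in ECKO (2.33 against 3.35 CPM). The labels overlapped for *Car4* and *Rbp7*, and *Car4* then stood at 10.4 CPM in ECKO 1 against 1.62 in ECKO 2.

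Another 93 genes of fatty acid handling were listed by role, and 65 were tested. None passed the adjusted threshold, and 4 (6.15%) had an unadjusted p below 0.05 in edgeR, against 4.78% of all genes. *Lrp1*, a lipoprotein receptor, stood at 82.7 and 73.6 CPM in ECKO against 38.4 and 54.3 in ECWT (log2 fold change 0.73, SE 0.25, adjusted p = 0.900). *Meox1*, the relative of *Meox2*, stood at 28.5 and 57.9 against 18.6 and 12.1 CPM (1.61, SE 0.44, adjusted p = 0.900). *Cebpb*, a transcription factor of adipocyte formation, stood at 11.8 and 12.9 against 4.66 and 4.69 CPM (1.41, SE 0.52). *Etfdh*, which passes electrons from fatty acid oxidation to the respiratory chain, was lower in both ECKO libraries, with 29.5 and 37.1 against 54.7 and 50.9 CPM (-0.62, SE 0.26, adjusted p = 0.900).

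By group, the median log2 fold change was -0.04 over 10 tested genes of uptake and activation, 0.05 over 12 lipoprotein genes, 0.29 over 9 genes of storage and lipolysis, -0.27 over 16 of oxidation, 0.09 over 10 of synthesis and 0.12 over 8 transcription factors, beside -0.0010 over all genes tested. Among the most abundant genes of these groups *Cav1*, the coat protein of caveolae, differed by -0.16 (SE 0.19), *Apoe*, an apolipoprotein, by -0.02 (SE 0.22), and *Scd2*, a stearoyl-CoA desaturase, by 0.15 (SE 0.17). *Cpt1a*, which admits fatty acids to mitochondria, differed by -0.29 (SE 0.23), and *Pnpla2*, the triglyceride lipase of cells, by 0.40 (SE 0.18, edgeR adjusted p = 0.900).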

How the data were processed

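Per the labels and the study's methods, the authors aligned SORT-seq reads to GRCm38 with STAR (version not given in the sources used here) and deposited 1 table of estimated counts per gene and cell, each a number of molecular identifiers corrected for chance repeats. The values were not normalized between cells. Columns were matched to libraries by the name they share with the labels. Cells with more than 1200 genes were kept. The study's methods name the same limit, yet 167 of the 991 deposited cells do not pass it and were left out here; the study's limit on spike-in reads was not applied. No doublet caller was run, since cells were sorted 1 per well. Well barcodes recur by design: 278 of the 355 in use occurred in 2 or more libraries.

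Levels are counts per 1000000 (CPM) of the counts summed per library. Shares of cells have exact binomial and levels exact Poisson intervals (95%; for 0 counts a limit of 3 counts is given), which cover counting error only. For equal depth each cell was thinned once to 2837 counts, the 10th percentile. Counts were rounded per cell, summed per library and tested with edgeR 4.0.16 (quasi-likelihood test in R 4.3.3). Genes were kept by filterByExpr, libraries were scaled by TMM, and p-values were adjusted after Benjamini and Hochberg over all tested genes. DESeq2 1.42.0 served as an alternative. The fit was tested on simulated data. Other alternatives were the scaling, the filter, each library left out, the minimum of genes, and cells left out by marker, depth or dissociation genes; leaving out each member's top cell was chosen after seeing the data. The members, gene lists and marker lists were chosen with earlier results of these data known. Named were all members, *Jag1*, genes of the fixed lists with an unadjusted p below 0.05 or the highest level, and the genes most like the members across cells. Protein sequences were not used here, and some genes that these rules select are not reported here.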

Additional observations from a re-analysis of the deposited data

Results flagged for a closer look

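Cells with 1200 genes or fewer entered none of the comparisons of the report, only the alternatives with another minimum of genes. In them the 10 genes summed to 1776 counts per 1000000 (CPM) in Jag1 ECKO replicate 1 (235 counts in 70 cells) and to 485 in Jag1 ECKO replicate 2 (34 counts in 37 cells), against 68.2 and 30.8 in the Jag1 ECWT libraries (3 counts in 25 cells and 2 in 35). This is a signal outside the main measurement that lies above its level in the control libraries. In Jag1 ECKO replicate 1 *Fabp4* gave 153 of these counts, *Cd36* 39 and *Car4* 11, where the kept cells of that library had 1 count of *Car4*, and 9 of the 70 cells had 3 or more of the genes. In Jag1 ECKO replicate 2 a single cell held 21 of the 34 counts. Capillary markers in these cells stood at 1428 CPM in Jag1 ECKO replicate 1 against 542 in Jag1 ECKO replicate 2 and 386 and 569 in the Jag1 ECWT libraries, and their part in the difference was not tested. The difference itself was not tested.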

How the results depend on the processing

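No paired analysis was possible because nothing ties a library of one genotype to a library of the other. Of 128 recomputed fold changes of the 6 tested members and *Jag1*, 116 kept their direction and their side of the adjusted p of 0.05. With no filter on low counts edgeR called 127 of 18508 genes, among them *Cd36* (1.52), *Fabp4* (1.54), *Timp4* (2.01) and *Jag1* (1.97); the cause was not tested. Leaving out 1 library at a time gave 0 to 417 called genes (196 without Jag1 ECKO replicate 1, 417 without Jag1 ECKO replicate 2), and log2 fold changes of 0.30 to 2.24 for *Cd36*, 0.36 to 2.17 for *Fabp4*, -0.32 to 2.01 for *Fabp5*, -0.60 to 0.028 for *Gpihbp1*, 0.31 to 0.74 for *Lpl*, 0.30 to 2.68 for *Timp4* and 1.36 to 2.42 for *Jag1*. *Fabp5* turned direction without Jag1 ECKO replicate 1 (-0.09) and Jag1 ECWT replicate 1 (-0.32), and *Gpihbp1* without the latter (0.028). Over all alternatives the edgeR and DESeq2 adjusted p ran from 5e-19 to 0.999909 for *Cd36*, from 1.49e-26 to 0.999909 for *Fabp4* and from 3.94e-07 to 0.999909 for *Timp4*. The other alternatives called 0 genes. Of 160 mean levels recomputed over other sets of cells 25 moved by over 1 SD, and of 40 shares of cells 16 lay outside their interval at equal depth. Asking for 3 or 5 members in place of 4 gave 23 and 5 cells in place of 12. *Rbp7*, *Car4*, *Pparg* and *Meox2* had 8 to 54 counts in all and did not pass the filter on low counts.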

Other observations

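Further capillary markers were found in the 12 cells with 4 or more of the genes. *Rgcc* was found in 5 of the 12 cells and 1 of the 698 cells with 0 or 1 of the genes, and *Igfbp3*, a binding protein of insulin-like growth factors, in 5 and 2. Not all markers of the list were found so: *Btnl9* was in 1 and 3 of these cells, and *Apln* in 0 and 2. These values describe 12 cells and were not tested.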
